A study of Mus musculus with 6 samples.

Results

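The transcription factors and splicing regulators best known from the epithelial-mesenchymal transition (EMT), 10 genes in all, were followed in AC29 and AB1, a pair of mouse malignant mesothelioma cell lines. They were taken by symbol and form 5 paralog pairs: the zinc finger factors Snai1 and Snai2, the basic helix-loop-helix (bHLH) factors Twist1 and Twist2, the zinc finger homeobox factors Zeb1 and Zeb2, the paired-related homeobox factors Prrx1 and Prrx2, and the epithelial splicing regulators Esrp1 and Esrp2. All 10 were measured, among 18193 genes in all, and each was read from its brightest probe set over the 6 arrays. Their 24 probe sets each carried 1 gene symbol, and 5 of the genes had more than 1 probe set.

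In EMT, cells lose the junctions and keratins of an epithelium and take on the shape, matrix and motility of mesenchyme. Snail and Zeb factors bind E-box sequences in the promoters of epithelial genes such as Cdh1 and repress them through corepressors. Twist proteins act as dimers with E proteins, and Id proteins sequester those partners. Prrx factors mark limb and craniofacial mesenchyme, and Esrp proteins direct the epithelial splice forms of transcripts such as Fgfr2 and Cd44. Mesothelium itself is an epithelium of mesodermal origin that carries both keratins and vimentin, and the tumours that arise from it range from epithelioid to sarcomatoid.

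AB1 was derived from a BALB/c mouse and grown to passage 40, and AC29 from a CBA mouse and grown to passage 60; the labels give female sex and an age of 6 to 8 weeks for both. The labels name no treating agent, and both lines grew in RPMI medium with 5% foetal calf serum to 80% confluency. Each line was sampled from 3 flasks, numbered 4, 5 and 6 for AB1 and 13, 14 and 15 for AC29, with 5 ug of total RNA per array, so the p-values carry only flask-to-flask spread, which may be technical. Line, strain and passage cannot be told apart in this design, and 1 line stands for each strain. Values are log2 RMA intensities, in which a step of 1 is a 2-fold difference.

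The arrays were alike in overall level, with medians between 5.76 and 5.81. AC29 replicate 14 stood apart from the others on the second principal component, which held 2.86% of the variance. A floor for background was set at 6.07, the 95th percentile of 86 probe sets for sensory receptors that such cells should lack. Of the 15 mesothelial markers, 9 were at or under the floor on every AB1 array against 2 in AC29, and 11 were higher in AC29, with per-array means over the list of 9.98 to 10.08 in AC29 and 6.07 to 6.14 in AB1. Msln, which encodes mesothelin, was read in both lines (9.67 ± 0.10 in AB1 and 10.41 ± 0.23 in AC29, SD, n = 3), while Gpm6a (at least 56.5-fold) and Upk3b (at least 86.9-fold) were among those higher in AC29. Wt1, a mesothelial transcription factor, read 4.77 ± 0.23 and 9.59 ± 0.10. Ptprc and Adgre1, which mark leukocytes and macrophages, and the endothelial genes Pecam1 and Cdh5 were at or under this floor on every array. So were 7 of 10 macrophage, 3 of 7 lymphocyte and 7 of 9 endothelial markers in all. Others read above it in both lines, such as Csf1r (6.56 in AB1 and 6.66 in AC29), Zap70 (8.48 and 8.50) and Egfl7 (7.36 and 7.63). The macrophage marker Cd68 was above it on 3 AB1 arrays and 0 AC29 arrays (6.68 and 6.03). Its difference of -0.65 (adjusted p = 0.00015 in limma) was under 2-fold. Fcer1g was above it on 1 AC29 array only. Limma and the ordinary linear model called 0 of 10 macrophage, 0 of 7 lymphocyte and 0 of 9 endothelial markers. Of these, 1, 0 and 1 had an unadjusted p under 0.05 in limma. Among all 18193 genes, 4166 toward AB1 and 4052 toward AC29 did so. Of 6 neural crest and melanocyte markers, Mitf was higher in AB1 (3.93-fold). Erbb3 lay toward AC29 (6.36 in AB1 and 6.93 in AC29) and was not called. Sox10 was nearly equal (6.78 and 6.72), and Tyr, Dct and Pmel were at or under the floor on every array.

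Both Twist genes, both Prrx genes and 1 Zeb gene were higher in AB1, and 1 epithelial splicing regulator was higher in AC29. Of the 10 genes, Twist1, Twist2, Zeb2, Prrx1 and Prrx2 were higher in AB1, Esrp2 was higher in AC29, and Snai1, Snai2, Zeb1 and Esrp1 did not pass. In bulk RNA a smaller share of cells with a transcript and less of it in each cell cannot be told apart. A gene was called when limma gave an adjusted p under 0.05 over all genes and the difference was at least 2-fold. By that rule 5.82% of all genes were called higher in AB1 and 5.12% higher in AC29; among genes with at least 1 array above the floor the shares were 8.70% and 7.68%. For 8 of the 10 genes every array of 1 line lay above every array of the other, against 50.1% of all genes. The median difference, AC29 minus AB1, was -1.19 on the log2 scale for the 10 genes and -0.0047 for all genes.

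**Figure D1:**
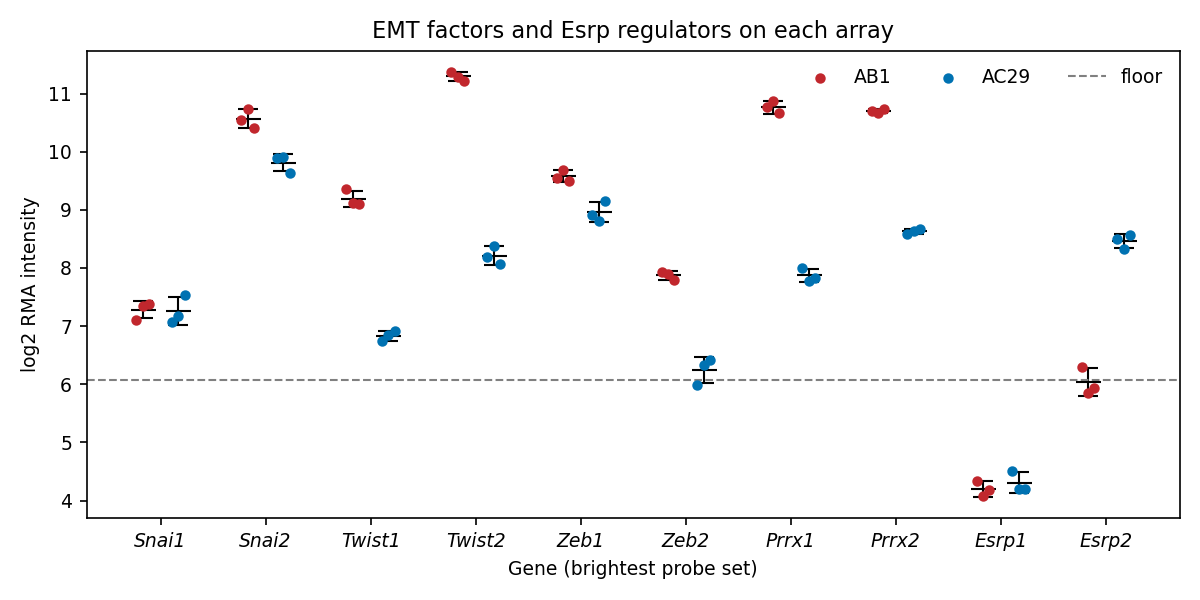
Log2 RMA intensity of the 10 genes on each of the 6 arrays (red, AB1; blue, AC29; horizontal bars, mean ± SD of 3 arrays; dashed line, floor at 6.07). Levels of different genes come from different probes and are not comparable; within a gene, Twist1, Twist2, Zeb2, Prrx1 and Prrx2 sit higher in AB1 and Esrp2 sits higher in AC29.

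Both Twist genes were lower in AC29 on every array. Twist2, a bHLH factor of dermal and osteogenic mesenchyme, read 11.37, 11.29 and 11.22 on the AB1 arrays and 8.20, 8.38 and 8.07 on the AC29 arrays. All AC29 arrays lay well under all AB1 arrays. The 8.46-fold difference, -3.08 ± 0.10 (SE) on the log2 scale with an adjusted p = 2.22e-08 in limma, was the 174th of 18193 when genes were ordered from the most AB1-sided. Twist1, required for cranial mesenchyme and for neural tube closure, read 9.35, 9.11 and 9.10 in AB1 and 6.74, 6.84 and 6.91 in AC29. Its groups were also apart, by 5.12-fold (-2.36 ± 0.10, SE; adjusted p = 1.10e-07). The AC29 values of Twist1 were above the floor but under 7.23, the 99th percentile of the same receptor sets; counted against that level the fold is at least 3.89. Each Twist gene had 1 probe set.

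The RefSeq promoter windows of both Twist genes, from 250 bases before to 50 bases after the start, were rich in CpG. Twist1 held 27 CpG and Twist2 held 25, more than in 84.5% and 81.6% of the 32851 windows of the same length in the table, whose median was 7. The 120 bases before the start are shown (GRCm38.p6, in the direction of the gene, CpG in capitals), since both genes passed in the same direction.
Twist1, chr12:33957551-33957670, plus strand: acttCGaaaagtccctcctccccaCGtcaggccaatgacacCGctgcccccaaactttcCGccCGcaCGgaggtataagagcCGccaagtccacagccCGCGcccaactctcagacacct
Twist2, chr1:91801341-91801460, plus strand: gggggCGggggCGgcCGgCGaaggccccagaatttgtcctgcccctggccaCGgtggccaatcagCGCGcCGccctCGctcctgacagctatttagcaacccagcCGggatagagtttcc
Neither window held CAGGTG or CACCTG, the E-box core read on both strands, which occurs in 20.2% of all windows.

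Both Prrx genes were lower in AC29 as well. Prrx1, a homeobox factor of limb bud and craniofacial mesenchyme, read 10.76, 10.88 and 10.66 in AB1 and 8.01, 7.78 and 7.82 in AC29. The lines were apart by 7.43-fold (-2.89 ± 0.10, SE; adjusted p = 2.70e-08 in limma). Prrx2, its close paralog, read 10.70, 10.66 and 10.74 in AB1 and 8.58, 8.64 and 8.67 in AC29. Its arrays had the smallest spread of the 10 genes in both lines (SD 0.041 and 0.042, n = 3), and its difference was 4.20-fold (-2.07 ± 0.08, SE; adjusted p = 5.74e-08). Prrx1 had 5 further probe sets, of which 4 were above the floor and were called higher in AB1 with folds of 3.87 to 7.53 (4.48% of all probe sets were called in that direction and 8.69% in either), and 1 was at 3.60 in AB1 and 3.62 in AC29, under the floor. Prrx2 had 1.

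The promoter windows of the Prrx paralogs differed in base composition although both genes were higher in AB1. Prrx2 held 28 CpG, more than in 85.8% of windows, and Prrx1 held 6, more than in 43.6%. Their 120 bases before the start are shown with CpG in capitals, 13 in Prrx2 and 1 in Prrx1.
Prrx1, chr1:163313651-163313770, minus strand: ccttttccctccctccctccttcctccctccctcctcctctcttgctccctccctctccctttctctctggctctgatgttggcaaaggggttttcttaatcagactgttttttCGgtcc
Prrx2, chr2:30845247-30845366, plus strand: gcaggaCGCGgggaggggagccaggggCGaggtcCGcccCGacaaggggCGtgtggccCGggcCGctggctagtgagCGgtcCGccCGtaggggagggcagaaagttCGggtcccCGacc
No E-box core was found in either window.

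Of the Zeb pair, Zeb2 passed the rule and Zeb1 did not. Zeb2, a repressor with roles in neural crest and myeloid cells, read 7.93, 7.89 and 7.79 in AB1 and 6.00, 6.34 and 6.42 in AC29. In AC29, 2 of 3 arrays were above the floor. The fold was 3.08 (-1.62 ± 0.12, SE; adjusted p = 4.67e-06 in limma), or at least 1.56 against the 99th percentile level. Of 4 further Zeb2 probe sets, the 2 above the floor in AB1 were also called higher there, by 2.39-fold and at least 1.96-fold, and the other 2 were under the floor in both lines. The mean of all its probe sets differed by -0.88 and missed the 2-fold minimum. Zeb1, the best-studied repressor of Cdh1 in carcinoma cells, read 9.55, 9.69 and 9.49 in AB1 and 8.92, 8.81 and 9.15 in AC29. Its groups did not overlap either, but the difference was 1.54-fold (-0.62 ± 0.11, SE; adjusted p = 0.00147), under the minimum. A further Zeb1 probe set above the floor differed by -0.33.

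Neither Snail gene passed the rule. Snai2, which encodes Slug, a factor of neural crest and basal epithelium, read 10.55, 10.74 and 10.42 in AB1 and 9.90, 9.90 and 9.64 in AC29. These groups did not overlap, yet the 1.69-fold difference (-0.75 ± 0.11, SE; adjusted p = 0.000608 in limma) was under the 2-fold minimum. The second Snai2 probe set differed by -0.66. Both Snai2 and Zeb1 would pass on the adjusted p alone, as did 39.1% of all genes. Snai1, which encodes Snail, read 7.11, 7.35 and 7.39 in AB1 and 7.07, 7.18 and 7.53 in AC29. The lines overlapped, the difference was -0.02 with a 95% interval of -0.32 to 0.28, and the level was close to 7.23.

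Among the windows of Snai1, Twist1, Twist2, Prrx1, Prrx2 and Zeb2, that of Snai1 alone held the E-box core, starting 126 bases before the start. Its surroundings are shown with the E-box in capitals, because Snail is known to bind its own promoter. Windows of Snai2, Zeb1, Esrp1 and Esrp2 were not analysed here.
Snai1, chr2:167538029-167538114, plus strand: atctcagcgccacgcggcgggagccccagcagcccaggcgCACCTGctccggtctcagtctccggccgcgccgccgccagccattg

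The Esrp genes are the epithelial counterpart of the repressors. Esrp2 read 6.31, 5.85 and 5.94 in AB1, where 1 of 3 arrays was above the floor, and 8.50, 8.33 and 8.56 in AC29. All AC29 arrays were above all AB1 arrays. The fold was 5.40 (2.43 ± 0.13, SE; adjusted p = 5.36e-07 in limma), and at least 2.36 against the 99th percentile level. The second Esrp2 probe set, at 5.51 in AB1 and 5.90 in AC29, stayed at or under the floor on all 6 arrays. Esrp1 read 4.08 to 4.34 in AB1 and 4.20 to 4.51 in AC29, under the floor on every array, so no fold is given.

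**Figure D2:**
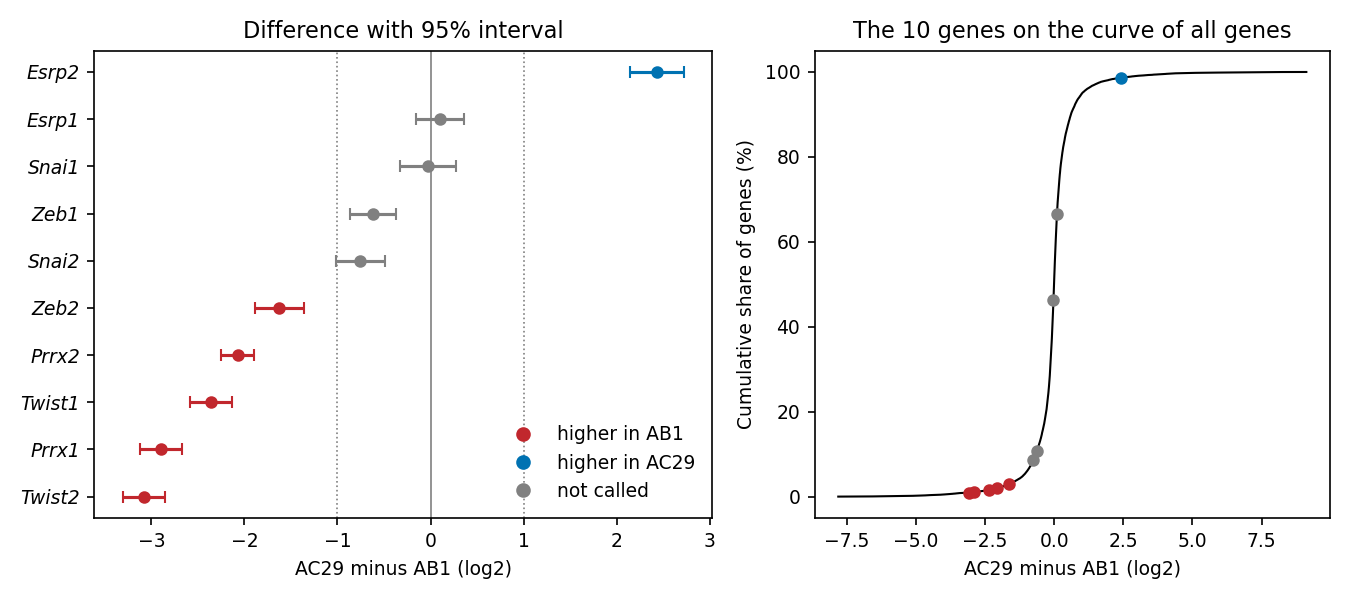
Left, difference AC29 minus AB1 (log2) of each gene with its 95% interval from limma (red, called higher in AB1; blue, called higher in AC29; grey, not called; dotted lines, the 2-fold minimum). Right, the same differences as points on the cumulative curve of all 18193 genes. Twist2 is farthest toward AB1 at -3.08, and Esrp2 is the 1 gene called toward AC29, at 2.43.

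**Figure D3:**
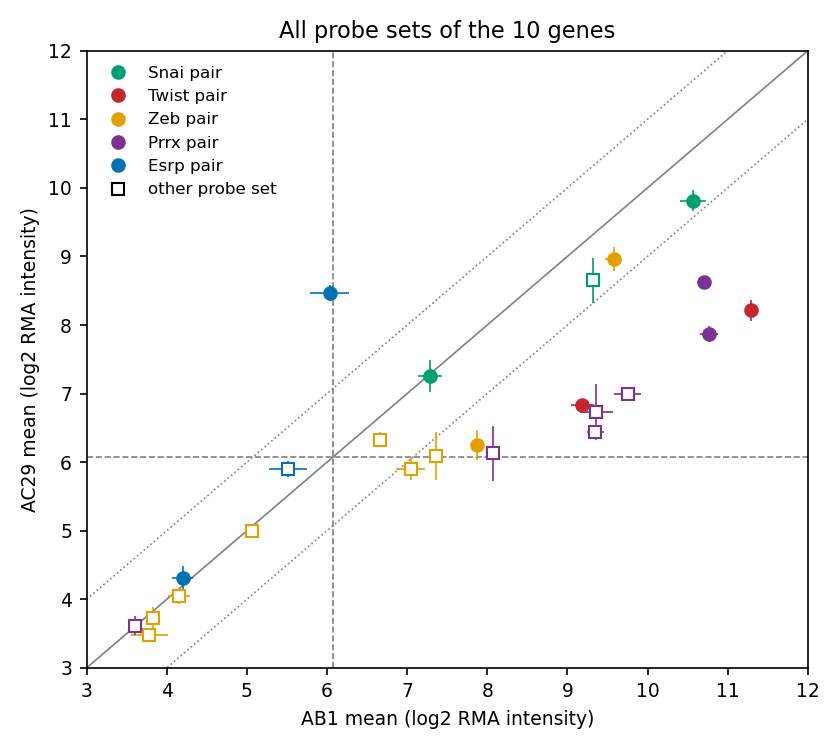
Mean log2 RMA intensity in AB1 (x axis) and AC29 (y axis) for the 24 probe sets (filled circles, probe set used; open squares, other probe sets; bars, SD of 3 arrays; solid line, equal values; dotted lines, 2-fold; dashed lines, floor). The Prrx1 and Zeb2 probe sets above the floor in AB1 lie beyond the 2-fold line on the AB1 side, and those under the floor lie near the diagonal.

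The paralogs of 4 pairs were compared for the size of their line differences. The line difference of Twist2 was larger than that of Twist1 by 0.72 ± 0.13 (SE), that of Zeb2 larger than that of Zeb1 by 1.003 ± 0.140 (0.59 on the mean of each gene's probe sets), and that of Snai2 larger than that of Snai1 by 0.73 ± 0.26, all on the log2 scale and all toward AB1. For Prrx1 against Prrx2 the value was -0.82 ± 0.13, the first being the more AB1-sided, but it was -0.12 on the mean of each gene's probe sets. The Esrp pair is not compared, since Esrp1 was under the floor throughout. In AC29, Twist1 (6.83) and Zeb2 (6.25) were under 7.23, the 99th percentile receptor level, and Snai1 was close to it in both lines. The part of such low levels in these gaps was not tested. In these 4 pairs the per-array log ratio of the paralogs did not overlap between the lines. Of all single genes 50.1% did not overlap either, and the share among log ratios of other gene pairs was not tested. The exact permutation test, 2-sided, gave p = 0.1 for each of the 4 pairs (0.1 after adjustment over all 5 pairs), the smallest p that 3 against 3 arrays allow.

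A few genes had profiles over the 6 arrays close to those of the called factors, measured as the root mean square difference after centring each gene on its own mean. Nearest to Twist2 were Cpq (0.0845), Ankrd1 (0.110) and Has2 (0.114), and to Twist1 were Pck2 (0.0635), Cst6 (0.0791) and Kank3 (0.0874). Nearest to Prrx1 were Kcnn4 (0.0625), Tcf4 (0.0741) and Lrig1 (0.0777), and to Prrx2 were Ly6e (0.0378), Desi2 (0.0623) and Mfge8 (0.0672). For Zeb2 they were Klf13, Lmo1 and Acss2 (0.0628 to 0.0714), and for Esrp2 they were Sp7, Cdc42ep2 and Foxred2 (0.0437 to 0.107). Over 2 lines, profiles are close wherever the line difference is of similar size and sign.

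Other transcription factors tied to EMT were also more often called toward AB1 than toward AC29: of 17 measured, 6 passed toward AB1 and 1 toward AC29. Hmga2, a chromatin protein known to induce Snail and Twist genes, was at 12.99 ± 0.04 (SD, n = 3) in AB1 against 8.37 ± 0.14, or 24.6-fold apart. Foxc2, a forkhead factor of mesenchyme, was at least 21.1-fold and the ETS factor Etv5 11.8-fold higher in AB1. Foxq1, another forkhead factor, was 3.01-fold higher in AC29 (7.52 ± 0.19 against 5.93 ± 0.24), with 1 of 3 AB1 arrays above the floor. Sox4 (11.95 and 11.75) did not pass. The list's median difference was -0.19, against -0.0047 for all genes. Of all genes, 5.82% were called toward AB1 and 5.12% toward AC29, the shares beside which this and the following lists stand. Counts at an unadjusted p under 0.05 in limma stand beside 4166 of 18193 genes toward AB1 and 4052 toward AC29.

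The dimer partners and inhibitors of Twist went both ways, with 2 of 9 called toward AB1 and 1 toward AC29 (median difference -0.15). Tcf4, an E protein that pairs with Twist, read 10.46, 10.54 and 10.47 in AB1 and 7.80, 7.44 and 7.67 in AC29, 7.22-fold apart. The E protein Tcf12 was 1.89-fold apart (11.37 and 10.46), under the minimum. Id2, an inhibitor without a DNA-binding domain, was 3.04-fold higher in AB1, and its 1 further probe set above the floor differed by -1.25. The mean of its probe sets differed by -0.97. When _x_, _s_ and _a_ sets, which can match several transcripts, were left out, the probe set used was not above the floor and differed by -0.06. Hand2, another bHLH factor able to pair with E proteins, read 5.23, 4.43 and 4.70 in AB1 and 9.77, 9.64 and 9.89 in AC29, a difference of at least 12.9-fold. Both further Hand2 sets above the floor differed by less, 0.52 and 2.07 on the log2 scale, and the mean over its sets by 2.52. All were opposite in sign to the line differences of the Twist genes.

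Cofactors and stability regulators of the Snail, Zeb and Twist proteins were mostly not called, as were most of all genes (5.82% called toward AB1 and 5.12% toward AC29). At an unadjusted p under 0.05 in limma, 4052 of all 18193 genes lay toward AC29 and 4166 toward AB1. Of 15 corepressor genes, limma called 1 toward AB1 and 0 toward AC29, with 8 toward AC29 and 3 toward AB1 at an unadjusted p under 0.05 (median difference 0.24). The called gene was Ctbp2, a corepressor that binds Zeb proteins, at 2.39-fold (10.65 ± 0.09 against 9.39 ± 0.22, SD, n = 3). Hdac2 (11.20 and 11.02) did not pass. Of 12 kinases, ubiquitin ligases and other regulators of protein stability, 0 were called in limma in either direction, with 1 toward AC29 and 7 toward AB1 at an unadjusted p under 0.05 (median difference -0.29). The ordinary linear model called 0 as well. Cops2, a signalosome subunit, was the brightest at 11.73 and 11.83.

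Epithelial genes that EMT factors are known to repress were called in 1 direction. Of 32 measured, limma called 9 toward AC29 and 0 toward AB1, with 12 and 1 at an unadjusted p under 0.05, while the median difference was 0.08 and 14 genes stayed at or under the floor on all 6 arrays. Krt8 and Krt19, keratins of simple epithelium, were at least 120-fold and 63.4-fold higher in AC29, and Cdh3, which encodes P-cadherin, at least 11.6-fold. Krt8, Krt18 and Krt19 are also among the 15 mesothelial markers, of which 11 were higher in AC29; the part of mesothelial genes in the list's count was not tested. Cdh1, which encodes E-cadherin, the reference target of Snail and Zeb factors, read 2.74 to 2.86 in AB1 and 3.88 to 3.90 in AC29 and counts among the 9, but was under the floor on all arrays, so no fold is given. Tjp1, which encodes the junction protein ZO-1, had nearly equal levels (10.68 and 10.45) and was not called.

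Of 23 measured epithelial genes with a RefSeq window, 18 had the E-box core in at least 1 window, against 22.6% of all 27025 genes with a window. The list was chosen from known targets of E-box binding repressors, so this is no independent count. Some genes of the list had no window in the set used, Cdh1, Cdh3 and Krt19 among them, so their promoters were not examined. Of the genes higher in AC29, 3 of 5 with a window had the E-box core, and of those not called 15 of 18. The E-boxes of these 3 genes higher in AC29 are shown in capitals with 20 bases on each side (GRCm38.p6).
Krt8, chr15:102004428-102004473, minus strand: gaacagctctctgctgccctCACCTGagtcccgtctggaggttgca
Krt18, chr15:102027982-102028027, plus strand: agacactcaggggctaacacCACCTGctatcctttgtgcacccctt
F11r, chr1:171437419-171437464, plus strand: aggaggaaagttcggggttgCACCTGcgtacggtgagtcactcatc
The E-box began 111 bases before the start in Krt8, 214 in Krt18 and 122 in F11r. F11r, which encodes a junctional adhesion molecule, was 8.75-fold higher in AC29 (11.84 ± 0.03 against 8.71 ± 0.17, SD, n = 3), and Krt18, the partner of Krt8, 2.24-fold.

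The epithelial transcription factors that oppose EMT were mostly dim. Of 14, 1 was called in each direction, against 5.82% of all genes toward AB1 and 5.12% toward AC29. On all arrays 8 stayed at or under the floor (median difference of the list -0.04). Foxa2, a forkhead factor of endoderm, reached 8.32 ± 0.09 in AC29 against 5.07 ± 0.04 (SD, n = 3), at least 4.76-fold apart. Klf5 was 4.00-fold higher in AB1 by its brightest probe set, and differed by -0.97 on the mean of its probe sets. Klf4 (11.68 and 11.46) did not pass.

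Mesenchymal genes were called in both directions, 7 of 27 toward AB1 and 4 toward AC29 (median difference -0.24). Acta2, the smooth muscle actin of myofibroblasts, was at 13.22 ± 0.03 (SD, n = 3) in AB1 against 6.53 ± 0.16, 104-fold apart. It rests on an _s_ probe set, and with those left out a probe set under the floor differed by -0.18. Pdgfrb, a growth factor receptor of mesenchyme, was at least 8.21-fold (a second probe set differed by -1.63) and the gelatinase Mmp2 at least 13.1-fold higher in AB1. The matrix genes Dcn (113-fold, with 1 of 3 AB1 arrays above the floor) and Col1a1 (3.24-fold) and the cadherin Cdh11 (at least 2.97-fold) were higher in AC29. Vim, which encodes vimentin, was bright in both lines (14.08 and 13.53) and did not pass. With genes limited to a mean above the floor, 2 in place of 4 were higher in AC29, since Cdh11 and Lum were then not tested.

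Of 12 genes whose transcripts Esrp proteins splice, limma called 3 toward AB1 and 0 toward AC29, with 5 and 1 at an unadjusted p under 0.05 (median difference -0.05). Slk, a kinase, was 3.05-fold and the integrin chain Itga6 2.46-fold higher in AB1. Cd44, the hyaluronan receptor whose variant exons Esrp proteins retain, was 2.03-fold higher in AB1 and was no longer called when AB1 replicate 5 (-0.998) or AC29 replicate 15 (-0.975) was left out. Fgfr2 was not called, at 7.64 ± 0.14 (SD, n = 3) in AB1 against 7.73 ± 0.14, nor was Enah, an actin regulator (10.32 and 10.27). A probe set gives the level of a transcript and not its splice form. Of 13 splicing regulators, 1 was called in each direction (median difference -0.02), against 5.82% of all genes toward AB1 and 5.12% toward AC29. Mbnl3, a muscleblind protein, was 3.77-fold higher in AC29 and Celf2 2.45-fold higher in AB1. Celf2 was read over the floor by 2 more sets, and both lay toward AB1 (-1.21 and -1.02). Its difference was -0.52 on the mean of all its probe sets. It was 0.05 when _x_, _s_ and _a_ sets were left out, a value from a set that did not reach over the floor. Srsf1 (12.76 and 12.80) was not called.

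Genes of signalling pathways known to induce EMT factors were called in both directions, 5 of 24 toward AC29 and 4 toward AB1. Their median difference was 0.25. The list also holds inhibitors of such signals, Smad7, Ski and Skil. Of these, Ski was called toward AC29 (2.49-fold), and Smad7 and Skil were not called. Tgfb2, a ligand known to induce Snail and Zeb genes, read 5.61, 5.89 and 5.79 in AB1 and 10.37, 9.76 and 10.32 in AC29, at least 16.9-fold higher in the line with less Twist, Prrx and Zeb2, and 3 further Tgfb2 sets above the floor differed by 2.32 to 4.36 on the log2 scale. Bmp4 (5.22-fold) and the receptor Met (3.85-fold) were also higher in AC29. Bmp2 (at least 21.8-fold), Fgfr1 (5.62-fold) and Notch1 (2.99-fold) were higher in AB1. Fgfr1 rests on an _s_ probe set. Its 1 further probe set above the floor differed by -1.98, and the mean of its probe sets by -1.69. With _x_, _s_ and _a_ sets left out, the set used was not above the floor and differed by -0.62. A second Notch1 probe set above the floor differed by -0.49. Ctnnb1, which encodes beta-catenin, was not called by its brightest probe set (12.38 and 13.13), but both its other probe sets differed by more (1.16 and 1.32), and the mean over its sets was called toward AC29 (1.08). Of 13 homeobox and other factors of limb and coelomic mesenchyme, Wt1 passed toward AC29 by at least 11.5-fold and Meis1 toward AB1 by at least 1.18-fold (median difference -0.20). The Meis1 difference was -0.36 on the mean of its probe sets and -0.03 when _x_, _s_ and _a_ sets were left out, and its call was also lost without AB1 replicate 5 (-0.91), without AC29 replicate 14 (-0.92), with array weights (-0.94) and in limma's treat test. Meis2 (9.26 and 9.01) did not pass.

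**Figure D4:**
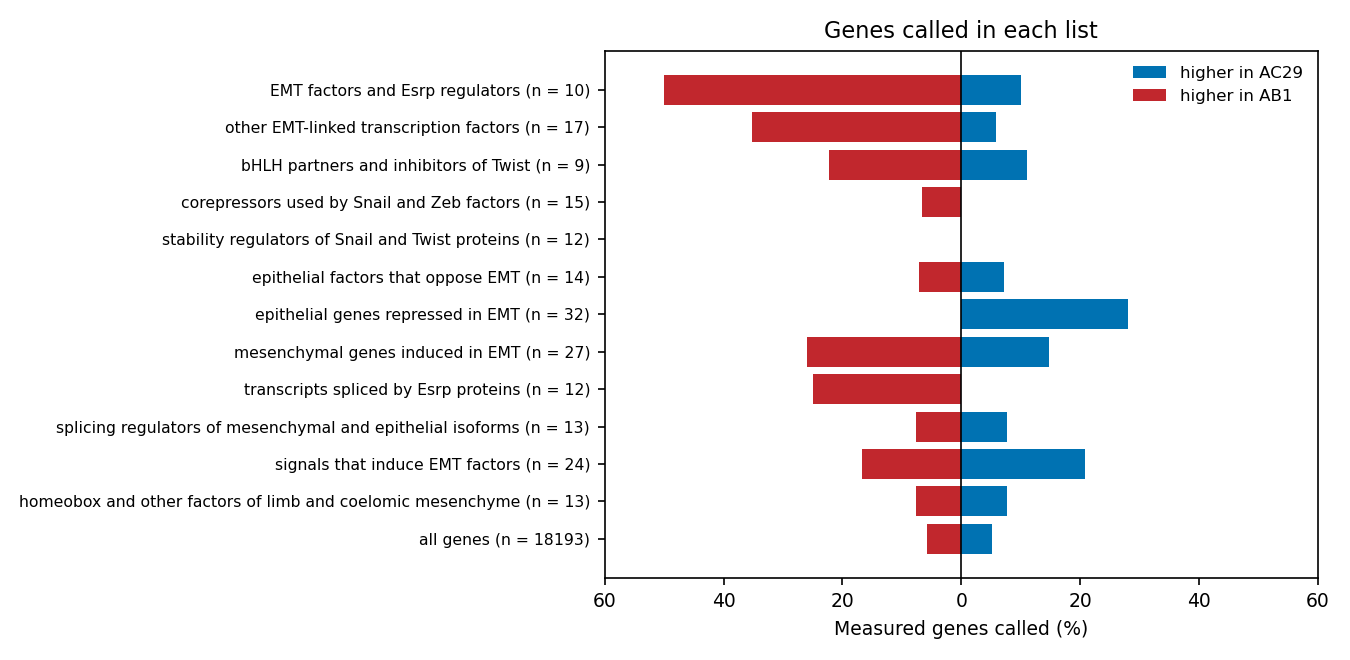
Share of measured genes called in each list (blue, to the right, higher in AC29; red, to the left, higher in AB1; n, genes measured). The 10 factors and the other EMT-linked factors extend toward AB1, with 5 of 10 and 6 of 17 genes, the epithelial genes extend toward AC29 with 9 of 32, and all genes show 5.82% and 5.12%.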

How the data were processed

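Per the labels, RNA of each flask (3 per line) went onto its own Affymetrix expression array. The deposited table held log2 values of 45101 probe sets. GCOS, RMA and Partek 6.4 appear, without a stated role, in the submitters' processing notes, and the scale was taken as log2 from the range of the values. RMA pulls dim probe sets together, so low genes can be understated. Scan dates and detection calls were not analysed here.

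After 64 control probe sets were left out, limma 3.58.1 in R 4.3.3 (eBayes, 2-sided) compared the lines over 45037 probe sets, and the Benjamini-Hochberg method adjusted p-values across 18193 genes. Gene names came from the platform annotation, and promoter windows from RefSeq (GRCm38.p6). The set of windows used held 6 of the 10 genes. A fold against a line with all 3 arrays at or under the floor (86 receptor probe sets, 95th percentile) was computed against the floor. SD is over 3 arrays, whose number limits the precision. The fit was tested on simulated data.

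The text names all 10 factors and, per list, the 3 or fewer largest non-overlapping calls of a direction and the brightest uncalled gene (not in the lists of other cell types, where markers of those types are named). Cdh1, Cd44, Fgfr2, Tcf12, Krt18, F11r, Ski, Skil, Smad7 and marker genes were named beyond that rule with their values seen where it did not take them. The genes, lists and tests were chosen with earlier results of these data known. Alternatives covered normalization, filters, probe set choice, moderation, thresholds and leaving out each array.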

Additional observations from a re-analysis of the deposited data

How the results depend on the processing

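Twist1, Twist2, Prrx1 and Esrp2 kept their direction and their call under all 17 alternatives, and Prrx2 under the 16 in which it was measured; without _x_, _s_ and _a_ probe sets Prrx2 has none, which leaves 4 genes higher in AB1. Zeb2 lost its call on the mean of its probe sets (-0.88), which also leaves 4. Without the 2-fold minimum 7 were higher in AB1, Snai2 and Zeb1 being added. With each array left out the counts stayed at 5 and 1, AC29 replicate 14 included, and the differences ran from -3.16 to -3.01 for Twist2, -2.40 to -2.28 for Twist1, -2.96 to -2.84 for Prrx1, -2.09 to -2.05 for Prrx2, -1.71 to -1.50 for Zeb2 and 2.34 to 2.57 for Esrp2. On the mean of its probe sets, the Esrp2 difference was 1.41. Snai1, not called, turned sign without AB1 replicate 5 (0.0091), AB1 replicate 6 (0.028), AC29 replicate 13 (0.068) or AC29 replicate 14 (0.017), and Esrp1 without AC29 replicate 13 (-0.00042); their ranges with 1 array left out were -0.16 to 0.068 and -0.00042 to 0.17. Over all genes 1991 were called, 1237 by limma's treat against 2-fold and 7105 with no minimum. The floor was 5.68 at the 90th percentile and 7.23 at the 99th. The 4 paralog comparisons kept their direction, though on the mean of probe sets the Zeb and Prrx pairs shrank to 0.59 and -0.12, under the 8 alternatives run for them, quantile normalization, the mean of probe sets and each array left out. Of the genes named from the lists, Krt8 and Wt1 have no probe set left without _x_, _s_ and _a_ sets. Limma's treat test ended the calls of Ctbp2, Krt18, Cdh1, Itga6, Cd44, Celf2, Ski and Meis1 among them. No paired analysis was possible because the lines share no replicate numbers. Signal over background limits Esrp1, Snai1, Cdh1, the AC29 levels of Zeb2 and Twist1 and the AB1 level of Esrp2.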

Other observations

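The share of RefSeq promoter windows with the E-box core CAGGTG or CACCTG differed widely between the gene lists. Its relation to the line difference of their genes was not tested. It was 78.6% of 28 windows for the epithelial genes and 38.5% of 13 for the epithelial transcription factors, against 20.2% of all 32851 windows. It was 5.88% of 17 windows for the mesenchymal genes and 4.76% of 21 for the splicing regulators. The lymphocyte markers, a list with no known tie to EMT and with 0 of 7 genes called in limma (0 at an unadjusted p under 0.05), had it in 77.8% of 9 windows. These are descriptions of sequence without a test, and several windows belong to the same gene.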
